A study of Mus musculus with 9 samples.

Results

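The 31 genes described here encode the enzymes of cholesterol synthesis, the proteins that regulate them, and the enzymes of fatty acid synthesis that share this regulation. They were chosen by symbol, 18 as sterol enzymes, 5 as regulators and carriers and 8 as fatty acid enzymes, out of 47937 genes in the count table, and all 31 passed the filter on low counts that 15540 genes passed. RNA was sequenced from mouse embryonic fibroblasts (MEFs) of 3 genotypes, with 3 libraries each. All 3 genotypes descend from the Eset1-conditional MEF clone E1c, whose Eset1 gene is floxed and can be deleted by a tamoxifen-inducible Cre. WT is that parental clone, with the genes of all H3K9 lysine methyltransferases (KMT) in place. S1S2 is 1 clone in which Suv39h1 and Suv39h2 were disrupted with CRISPR/Cas9, and G9Gl is 1 clone in which G9a (Ehmt2) and Glp (Ehmt1) were disrupted, each picked because western blots no longer detected the targeted proteins. Genotype and clone therefore cannot be told apart in any comparison below, and the p-values measure the spread between libraries of a line. No tamoxifen treatment and no culture condition that differs between the genotypes is named in the labels, and all lines are labelled as grown in standard medium. By the study's methods, a construct with inducible Cre and puromycin resistance was added again after the gene disruption and lines were kept in puromycin. Whether WT carried it too is not given in the sources used here, so a difference in transgene or selection cannot be told apart from genotype.

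Cholesterol is built from acetyl-CoA through mevalonate, farnesyl diphosphate, squalene and lanosterol, and the genes of this route are switched on together by SREBP transcription factors. The SREBP precursors, encoded by Srebf1 and Srebf2, sit in the endoplasmic reticulum membrane bound to the escort protein Scap. When sterols are scarce Scap carries them to the Golgi, where proteases release the active factor, and when sterols are plentiful Insig proteins hold Scap back. SREBP products of Srebf2 act mainly on sterol genes and those of Srebf1 more on fatty acid genes. The factors bind sterol response elements and usually work beside NF-Y, which binds CCAAT boxes, and Sp1, which binds GC boxes.

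Promoter windows of RefSeq (GRCm38.p6, from 250 bases before to 50 bases after each annotated start) were held for 24 of the 31 genes, and not for Fdps, Fdft1, Sqle, Stard4, Scd1, Scd2 and Fads1. Each window was searched on both strands for the sterol response element TCACNCCAC, the CCAAT box CCAAT and the GC box GGGCGG. The CCAAT letters were in a window of 14 of the 15 sterol enzymes searched (93.3%), against 43.3% of the 10242 tested genes with a window and 41.1% of all 27025 genes with a window. They were in 3 of 4 regulators and carriers and in 2 of 5 fatty acid enzymes (40%). GC boxes were in 14 of the 15 sterol enzymes and in 69% of the tested genes, and in 38.2% of all genes. Of the other branches, 4 of 4 regulators and carriers and 2 of 5 fatty acid enzymes (40%) held a GC box. The strict sterol response element was found in Hmgcs1 alone among the members, 137 bases before the start, and in 1.32% of the tested genes and 1.44% of all genes. These are matches of letters in a short window and not mapped binding sites. The following 4 sequences run 5′ to 3′ on the gene's strand from 200 to 41 bases before the start and hold no annotated exon. They are shown because Hmgcs1 had the largest fall of the members in G9Gl, Mvk stands beside it in the mevalonate steps, and Hsd17b7 and Ebp are the sterol enzymes that rose in S1S2. Capitals mark CCAAT boxes, written ATTGG where the box lies on the opposite strand, and in Hmgcs1 also the sterol response element, which overlaps no other motif searched.
Hmgcs1, chr13:119690151-119690310, + strand: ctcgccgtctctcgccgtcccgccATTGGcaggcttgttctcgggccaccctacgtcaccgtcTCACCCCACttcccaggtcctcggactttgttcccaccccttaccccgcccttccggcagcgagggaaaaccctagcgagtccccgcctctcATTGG
Mvk, chr5:114444069-114444228, + strand: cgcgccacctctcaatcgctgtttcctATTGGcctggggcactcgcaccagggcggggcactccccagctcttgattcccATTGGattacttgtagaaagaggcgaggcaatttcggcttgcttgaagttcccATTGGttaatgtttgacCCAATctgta
Hsd17b7, chr1:169969246-169969405, - strand: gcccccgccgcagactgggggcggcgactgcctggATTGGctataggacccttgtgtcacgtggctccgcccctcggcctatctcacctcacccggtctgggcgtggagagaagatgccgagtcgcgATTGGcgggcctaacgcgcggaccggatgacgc
Ebp, chrX:8193553-8193712, - strand: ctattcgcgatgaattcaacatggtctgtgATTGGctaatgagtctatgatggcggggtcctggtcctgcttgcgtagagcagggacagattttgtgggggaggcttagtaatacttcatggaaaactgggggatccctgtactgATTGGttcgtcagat
The printed stretches of Hsd17b7 and Ebp hold 2 CCAAT boxes each, as does that of Hmgcs1, and that of Mvk holds 4.

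The libraries held between 21319778 and 32157623 gene counts, and no member had fewer than 128 counts in any library, far above the floor of 3 counts taken as the limit of detection. Levels are given as CPM, counts divided by the library's total after scaling by TMM factors between 0.981 and 1.03. Of the targeted genes, transcripts of Suv39h1 fell in S1S2 (log2 fold change -1.36) and those of Ehmt2 and Ehmt1 fell in G9Gl (-1.20 and -1.04), while Suv39h2 transcripts rose in S1S2 by 0.70, so that for this gene the transcript level does not show the disruption. The 8 fibroblast markers summed to between 9795 and 11290 CPM in WT, between 7369 and 7430 in S1S2 and between 7718 and 8573 in G9Gl. Of these 8 markers 6 fell and 1 rose in each mutant. In S1S2 Col3a1, Col1a2, Pdgfra, Thy1 and Pdgfrb fell by more than 2-fold (log2 fold changes -3.01, -2.60, -2.04, -1.29 and -1.14) and Vim rose by 0.72. In G9Gl Pdgfra and Pdgfrb fell by more than 2-fold (-1.85 and -1.34), Col3a1 fell by 0.86 on the log2 scale and Thy1 rose by 2.94. Markers of adipocytes, cells with high lipid synthesis, summed to at most 2.34 CPM in any library, and Adipoq, Plin1 and Cidec had at most 3 counts in each. The 6 proliferation markers summed to between 3358 and 3705 CPM in WT, 3399 and 3451 in S1S2, and 2984 and 3160 in G9Gl, and 4 of them fell in G9Gl by at most 0.24 on the log2 scale. The part of proliferation and of the fibroblast markers in the results below was not tested. In bulk RNA, fewer cells of a kind and less RNA per cell cannot be told apart.

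Sterol synthesis transcripts were lower in both mutants, and lowest in G9Gl. The summed level of the 18 sterol enzymes was between 2126 and 2239 CPM in WT, between 1668 and 1741 in S1S2 and between 1293 and 1441 in G9Gl, with no overlap between genotypes. In G9Gl 17 of the 18 fell and none rose, where rise, fall and change stand for a p, adjusted over all 15540 genes by Benjamini-Hochberg, of 0.01 or less in edgeR's quasi-likelihood test. In S1S2 11 of the 18 fell and 2 rose. The median log2 fold change of the 18 was -0.62 in G9Gl and -0.31 in S1S2, beside -0.007 and -0.003 over all genes tested. Most of these falls were small, since only Hmgcs1 and Idi1 reached a 2-fold change, both in G9Gl.

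Across all 31 members, 14 fell and 5 rose in S1S2, and 25 fell and 1 rose in G9Gl. Over all genes tested 17.6% fell and 20.3% rose in S1S2, and 16% fell and 19% rose in G9Gl. The share of members that fell was thus above the share of all genes in both mutants. The share that rose in S1S2 was near that of all genes, and in G9Gl it was below. The members were chosen with earlier results of these data known, so these shares are descriptions and were not tested. At the stricter limit of an adjusted p of at most 0.01 with at least a 2-fold change, which 9% of all genes passed in S1S2 and 10.2% in G9Gl, no member was called in S1S2 and 2 were called in G9Gl. Both mutants were compared with the same 3 WT libraries, so the 2 comparisons are not independent.

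**Figure D1:**
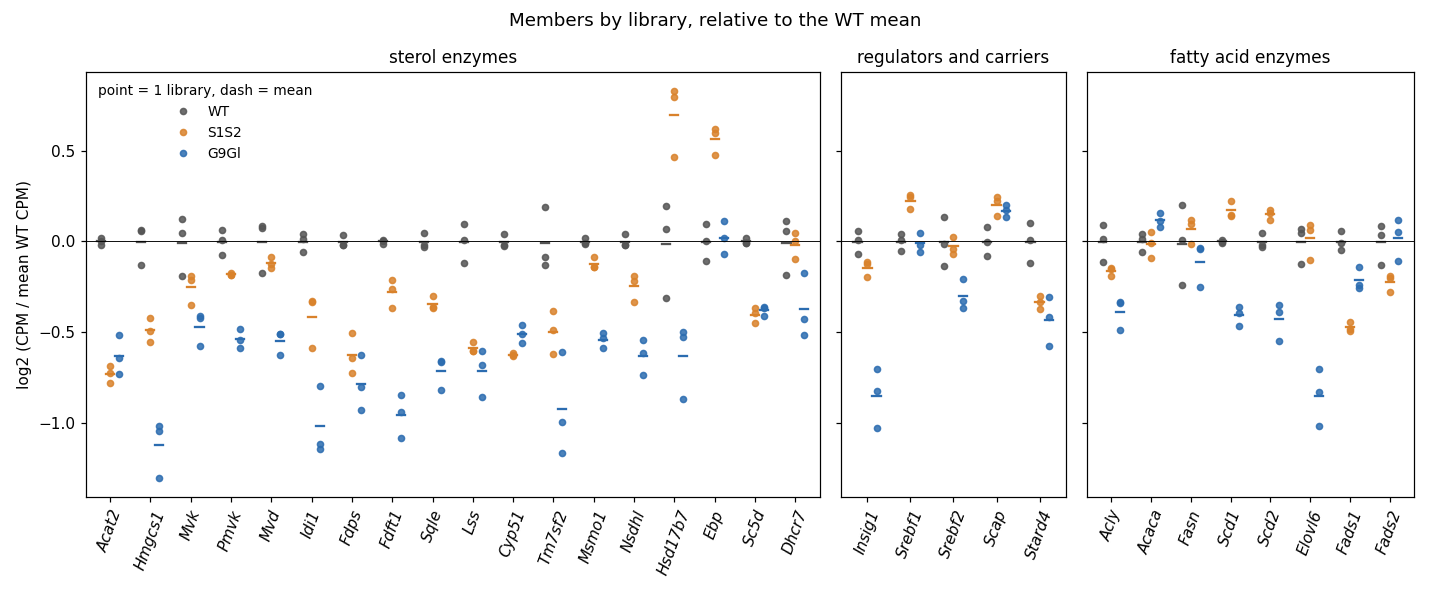
Log2 ratio of each library's CPM to the WT mean (vertical axis) for the 31 members (horizontal axis), with a point per library, a dash per genotype mean, and panels for sterol enzymes, regulators and carriers, and fatty acid enzymes. The G9Gl points lie below WT for all sterol enzymes but Ebp, and Dhcr7 overlaps WT, whereas Hsd17b7 and Ebp are the sterol enzymes whose S1S2 points lie above WT.

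The route begins with the making of acetoacetyl-CoA and HMG-CoA. Acat2, a cytosolic thiolase that joins acetyl-CoA units (chr17:12942890-12960747), stood at 183, 188 and 186 CPM in the WT libraries, 112, 115 and 108 in S1S2 and 112, 119 and 130.0 in G9Gl. Both mutants lay below WT without overlap and overlapped each other. Its log2 fold change was -0.73 ± 0.028 (SE, n = 3 libraries per genotype, as throughout) in S1S2 and -0.63 ± 0.064 in G9Gl, with adjusted p = 2.5e-09 and 1.32e-08. About 33.9% of the 75-base stretches of its transcripts also occur in Acat3 or Tcp1, so part of its reads could have been split. Hmgcs1 (ENSMUSG00000093930, chr13:119690379-119708260), the synthase that makes HMG-CoA and whose upstream sequence is printed above, was at 342, 340.4 and 299 CPM in the WT libraries, 232, 244 and 223 in S1S2 and 132, 161 and 158 in G9Gl. The 3 genotypes formed separate steps, with WT highest and G9Gl lowest. It fell by 0.49 ± 0.073 on the log2 scale in S1S2 (adjusted p = 1.02e-05) and by 1.12 ± 0.11 in G9Gl (adjusted p = 3.09e-10), where 46.1% of the WT level was left. An antisense gene, Gm48342, overlaps 557 bases of its exons.

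The mevalonate steps followed. Mvk, Pmvk and Mvd encode the enzymes that phosphorylate mevalonate and decarboxylate it to isopentenyl diphosphate. All 3 fell in G9Gl, Mvk by 0.47 ± 0.11, Pmvk by 0.54 ± 0.05 and Mvd by 0.55 ± 0.094 on the log2 scale. In S1S2 none of the 3 passed the threshold, although Mvk (log2 fold change -0.25 ± 0.11, adjusted p = 0.0103) and Pmvk (-0.18 ± 0.041, adjusted p = 0.0161) lay close to it. Without WT replicate 3, the lowest WT library for Mvk and Mvd, both genes passed the threshold in S1S2 at log2 fold changes of -0.34 and -0.20. With no composition factor Mvk and Pmvk passed in edgeR (adjusted p = 0.00339 and 0.00849), and Mvk also with no filter (0.000152), with at least 10 counts in every library (0.00993) and with the replicate number as a block (0.00581). Relative to the medians of their chromosomes, Pmvk was at -0.28 and Mvd at -0.27 in S1S2. Idi1 (ENSMUSG00000058258, chr13:8885501-8892451), the isomerase that makes dimethylallyl diphosphate, was at 46.8, 45.9 and 43.7 CPM in the WT libraries, 36.1, 36.3 and 30.2 in S1S2 and 20.6, 26.1 and 20.99 in G9Gl. The genotypes did not overlap, and G9Gl was lowest. Its fall in G9Gl, -1.01 ± 0.11 with an adjusted p of 2.29e-08, was just past 2-fold, and was under it without WT replicate 1 or G9Gl replicate 1 or 3 (-0.99 to -0.95). Hmgcs1 stayed past 2-fold in each of these fits, and was joined by Tm7sf2 (-1.08) without G9Gl replicate 1 and by Fdft1 (-1.01) without G9Gl replicate 3, so the second member called depended on the libraries. In S1S2 Idi1 fell by 0.41 ± 0.091 on the log2 scale (adjusted p = 0.000533). Related sequences, several of them named Gm genes, hold 23.6% of the 75-base stretches of Idi1.

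Fdps and Fdft1 act at the branch point where farnesyl diphosphate is made and then committed to squalene. Fdps, farnesyl diphosphate synthase (chr3:89093588-89101959), was at 37.3, 38.7 and 37.3 CPM in the WT libraries, 24.2, 26.6 and 22.9 in S1S2 and 19.8, 21.6 and 24.5 in G9Gl. Both mutants were below WT and overlapped each other, at -0.62 ± 0.067 and -0.78 ± 0.09 on the log2 scale in S1S2 and G9Gl (adjusted p = 2.7e-06 and 1.25e-07). Fdft1, squalene synthase (chr14:63145150-63179578), was at 134, 134 and 132 CPM in the WT libraries, 111, 115 and 104 in S1S2 and 62.8, 69.5 and 74.2 in G9Gl. Here the genotypes were again in separate steps, and the fall was -0.28 ± 0.045 in S1S2 and -0.95 ± 0.07 in G9Gl on the log2 scale (adjusted p = 0.000424 and 1.92e-10). Both genes share over 20% of their 75-base stretches with other annotated genes, and Ctsb overlaps 774 bases of Fdft1 on the opposite strand.

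Squalene is oxidised by Sqle, a rate-limiting step, and closed into the sterol ring by Lss. Sqle (chr15:59315077-59331192) was at 247, 258 and 245 CPM in the WT libraries, 194, 203 and 194 in S1S2 and 142, 158 and 158 in G9Gl. It fell stepwise, by 0.34 ± 0.031 in S1S2 and by 0.71 ± 0.056 in G9Gl on the log2 scale (adjusted p = 9.09e-06 and 8.48e-10). Lss, lanosterol synthase (chr10:76531588-76557138), was at 185, 196 and 169 CPM in the WT libraries, 120.3, 125 and 121 in S1S2 and 101, 114 and 120.3 in G9Gl. Both mutants lay below WT and overlapped each other, with log2 fold changes of -0.59 ± 0.064 and -0.71 ± 0.098 (adjusted p = 4.35e-07 and 3.12e-08).

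The enzymes that turn lanosterol into cholesterol were more varied. Cyp51, lanosterol demethylase (chr5:4081145-4104746), was at 384, 383 and 400.5 CPM in the WT libraries, 251, 252 and 254 in S1S2 and 264, 273 and 283 in G9Gl. It fell in both mutants, by 0.62 ± 0.021 in S1S2 and 0.51 ± 0.036 in G9Gl on the log2 scale, and here S1S2 was the lower of the mutants in every library. Tm7sf2, a sterol reductase and the scarcest member (chr19:6062821-6068373), shares 532 exonic bases with Vps51 and was at 8.58, 10.7 and 8.83 CPM in the WT libraries, 7.17, 6.09 and 6.68 in S1S2 and 6.14, 4.71 and 4.18 in G9Gl. It fell in both, by 0.50 ± 0.12 and 0.91 ± 0.19 on the log2 scale (adjusted p = 0.00522 and 2.87e-05), but the S1S2 call was lost without WT replicate 2 or without S1S2 replicate 2 or 3 (log2 fold changes -0.40, -0.44 and -0.50, adjusted p = 0.0284, 0.033 and 0.0141). Nsdhl, which removes carbon from the sterol ring together with Msmo1 (chrX:72918557-72958514), was at 44.4, 46.4 and 44.4 CPM in the WT libraries, 38.7, 39.5 and 35.7 in S1S2 and 27.02, 30.9 and 29.3 in G9Gl. All mutant libraries were below WT, with G9Gl lowest, at log2 fold changes of -0.25 ± 0.049 and -0.63 ± 0.06 (adjusted p = 0.00242 and 1.21e-07), and the S1S2 call was lost without S1S2 replicate 3 (-0.20, adjusted p = 0.0173). Msmo1, the methylsterol monooxygenase of these steps, fell in G9Gl by 0.54 ± 0.026 and was at -0.12 ± 0.022 in S1S2, which did not pass (adjusted p = 0.0155). It did pass there by DESeq2 (adjusted p = 0.00607), and in edgeR with no composition factor (0.00606) or with at least 10 counts in every library (0.00928). It was at -0.28 in S1S2 relative to the median of chromosome 8. Sc5d, which desaturates the sterol ring, fell in both mutants, by 0.41 ± 0.026 and 0.38 ± 0.019. Dhcr7, the reductase of the last step, fell in G9Gl by 0.37 ± 0.14 (adjusted p = 0.00309) while its libraries overlapped those of WT, and the call was lost without WT replicate 1 or 2 or G9Gl replicate 1 or 3 (log2 fold changes from -0.34 to -0.30). In S1S2 it was at -0.01 ± 0.10 with a 95% interval from -0.29 to 0.26.

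Hsd17b7 and Ebp went the other way in S1S2. Hsd17b7 (ENSMUSG00000026675, chr1:169949535-169969241), a keto reductase of the same demethylation steps as Nsdhl, was at 55.3, 60.3 and 42.5 CPM in the WT libraries, 93.7, 91.7 and 72.8 in S1S2 and 28.9, 37.3 and 36.6 in G9Gl. S1S2 lay wholly above WT and G9Gl wholly below it. It rose in S1S2 by 0.71 ± 0.19 on the log2 scale (adjusted p = 6.26e-05) and was at -0.62 ± 0.19 in G9Gl, a fall with an adjusted p of 0.000349. Genes of chromosome 1 had median log2 fold changes of -0.13 in S1S2 and -0.26 in G9Gl, and relative to these medians Hsd17b7 was at 0.84 and -0.36. Ebp, the isomerase that shifts the ring double bond, had a mean of 37.1 ± 2.62 CPM (SD) in WT, 54.96 ± 2.91 in S1S2 and 37.7 ± 2.39 in G9Gl. It rose in S1S2 by 0.57 ± 0.074 on the log2 scale (adjusted p = 1.22e-06) and was at 0.02 ± 0.079 in G9Gl, with a 95% interval from -0.20 to 0.24. Ebp falls under the 1.5-fold limit set for naming genes with full values and is described here because it rose.

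The sterol sensing machinery held both rises and falls. Insig1, which retains Scap and is itself a sterol-repressed target (chr5:28071363-28078662), was at 183, 177 and 167 CPM in the WT libraries, 162, 162 and 153 in S1S2 and 86.1, 108 and 99.00 in G9Gl. G9Gl was far below the other genotypes at -0.85 ± 0.10 on the log2 scale (adjusted p = 5.35e-09), while S1S2, at -0.14 ± 0.046, did not pass (adjusted p = 0.0668) except with no filter on low counts (-0.16, adjusted p = 0.00594 in edgeR). Srebf2 (chr15:82147181-82205379), the gene of the SREBP that drives sterol synthesis, was at 234, 260.0 and 215 CPM in the WT libraries, 240.5, 225 and 230.0 in S1S2 and 183, 205 and 188 in G9Gl. It fell in G9Gl by 0.30 ± 0.093 on the log2 scale (adjusted p = 0.000494) and overlapped WT in S1S2 (-0.03 ± 0.084, 95% interval from -0.26 to 0.21). Srebf1 (chr11:60199089-60222581), more tied to fatty acid synthesis, was at 122, 125 and 117 CPM in the WT libraries, 145, 138 and 144 in S1S2 and 117, 125 and 120.0 in G9Gl. It rose in S1S2 by 0.23 ± 0.036 (adjusted p = 0.000379) and was at -0.01 ± 0.04 in G9Gl, with a 95% interval from -0.12 to 0.10.

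Scap (chr9:110333288-110384950), the escort protein, was the only member that rose in both mutants and was at 87.3, 92.8 and 82.8 CPM in the WT libraries, 102, 96.5 and 104 in S1S2 and 98.8, 101 and 96.3 in G9Gl. All mutant libraries were above all WT libraries, at log2 fold changes of 0.20 ± 0.057 in S1S2 and 0.17 ± 0.051 in G9Gl (adjusted p = 0.00247 and 0.0084). The adjusted p in G9Gl was the highest of any member that passed against WT. The S1S2 call was lost without WT replicate 1 or 3 or S1S2 replicate 1 or 3 (log2 fold changes from 0.16 to 0.19), and the G9Gl call without WT replicate 1 or 3 or any 1 of the G9Gl libraries (from 0.13 to 0.19). An antisense gene, 5830462I19Rik, overlaps 985 bases of Scap exons, and whether strand was used in counting is not given in the sources used here. Stard4, a carrier of cholesterol between membranes (chr18:33199355-33213862), fell in both mutants, by 0.33 ± 0.068 in S1S2 and 0.43 ± 0.10 in G9Gl on the log2 scale.

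Fatty acid synthesis transcripts changed less evenly. In G9Gl 5 of the 8 enzymes fell and none rose, and their median log2 fold change was -0.30. S1S2 showed 2 falls and 1 rise, and a median of 0.003, which took either sign when 1 library was left out (-0.04 without WT replicate 3 to 0.05 without S1S2 replicate 3). Of all genes tested 16% fell and 19% rose in G9Gl, and 17.6% fell and 20.3% rose in S1S2. The share of the enzymes that fell in G9Gl was above that of all genes. In S1S2 the share that changed was near that of all genes (37.9%). The summed level of the 8 enzymes was between 4479 and 4902 CPM in WT, between 4857 and 4907 in S1S2 and between 3512 and 3926 in G9Gl. Scd2 is the largest part of these sums.

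Of the enzymes that build the chain, Acly alone passed the threshold, in G9Gl. Acly, which makes cytosolic acetyl-CoA from citrate and so feeds both branches, fell in G9Gl by 0.39 ± 0.078 on the log2 scale and was at -0.16 ± 0.061 in S1S2 (adjusted p = 0.0162), where it passed the threshold in edgeR without WT replicate 3 (-0.22), with no composition factor (-0.19, adjusted p = 0.00369) and with no filter (-0.18, adjusted p = 0.000611). Acaca, which makes malonyl-CoA, passed in neither mutant (-0.01 ± 0.051 in S1S2 and 0.12 ± 0.038 in G9Gl, with 95% intervals from -0.16 to 0.13 and from 0.01 to 0.22). Fasn, the fatty acid synthase (chr11:120805846-120824547), was at 710.0, 809.6 and 597 CPM in the WT libraries, 766, 754 and 699 in S1S2 and 593, 688 and 684 in G9Gl. The WT libraries alone covered almost the whole range, and the S1S2 libraries lay within it. Its log2 fold changes of 0.07 ± 0.13 and -0.11 ± 0.15 did not pass (adjusted p = 0.52 and 0.308), and the 95% intervals, from -0.30 to 0.44 and from -0.51 to 0.30, are wide, that of G9Gl including a fall the size of that of Acly. Without WT replicate 3 it passed in G9Gl at -0.21.

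Elongation and desaturation, which finish the fatty acid, held the larger changes. Elovl6 (chr3:129532355-129638495), which elongates palmitate, was at 120.2, 119 and 105 CPM in the WT libraries, 122, 119.9 and 107 in S1S2 and 56.7, 70.4 and 64.5 in G9Gl. The fall of -0.85 ± 0.11 on the log2 scale in G9Gl (adjusted p = 2.91e-08) was of the size of that of Insig1, whereas S1S2 overlapped WT at 0.02 ± 0.085. Scd1 (chr19:44394455-44407879) and Scd2 (chr19:44293674-44306864) are stearoyl-CoA desaturases, which make oleate. Scd1 was at 357, 358 and 360.3 CPM in the WT libraries, 397, 395 and 418 in S1S2 and 259, 279 and 273 in G9Gl. Scd2, the most abundant member per length at 431 CPM per kilobase in WT, was at 2318, 2431 and 2305 CPM in the WT libraries, 2552, 2626 and 2657 in S1S2 and 1606, 1844 and 1794 in G9Gl. For both genes S1S2 lay above WT and G9Gl below it. Scd1 rose in S1S2 by 0.17 ± 0.026 (adjusted p = 0.00195), a call lost without WT replicate 1 (0.16) or S1S2 replicate 3 (0.15), and Scd2 did not pass there (0.15 ± 0.03, adjusted p = 0.0203). Scd2 did pass by DESeq2 (adjusted p = 0.00815), and in edgeR with no filter (0.00721) or with only the 2 genotypes compared (0.00921). Both fell in G9Gl, Scd1 by 0.41 ± 0.032 and Scd2 by 0.43 ± 0.065 on the log2 scale (adjusted p = 2.47e-07 and 2.1e-06). Fads1 and Fads2, which desaturate polyunsaturated fatty acids, fell in S1S2 by 0.47 ± 0.034 and 0.22 ± 0.07 on the log2 scale. Fads1 also fell in G9Gl by 0.21 ± 0.048, and Fads2 was at 0.02 ± 0.092 there. The S1S2 call of Fads2 was lost without WT replicate 1 or 2 or any 1 of the S1S2 libraries (log2 fold changes from -0.24 to -0.18).

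Scd1, Scd2, Fads1, Fads2 and Tm7sf2 lie on chromosome 19, where the median over all genes tested was shifted in both mutants. The median log2 fold change over its 487 tested genes was 0.34 in S1S2, -0.17 in G9Gl and -0.52 for G9Gl against S1S2. Relative to the chromosome median, Scd1 and Scd2 were at -0.17 and -0.19 in S1S2 and at -0.24 and -0.26 in G9Gl, so the direction of both in S1S2 turned. Fads1 and Fads2 were at -0.81 and -0.56 in S1S2 and at -0.05 and 0.19 in G9Gl on the same scale. Tm7sf2 was at -0.84 and -0.74. With the medians of all chromosomes removed, the fatty acid median was -0.17 in S1S2 and -0.19 in G9Gl. Copy number was not measured.

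**Figure D2:**
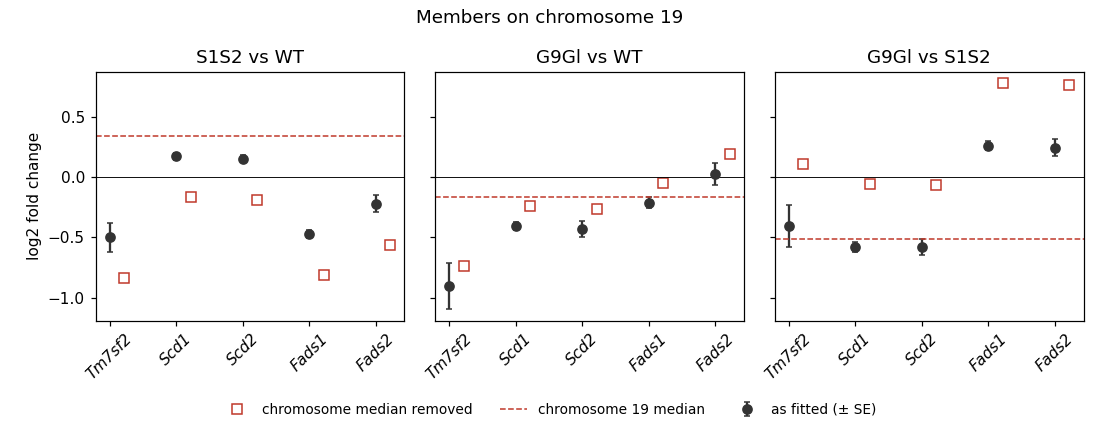
Log2 fold change (vertical axis) of the 5 members on chromosome 19 (horizontal axis) in each comparison, as fitted with SE bars (black) and with the chromosome 19 median removed (red squares), the median being the dashed line. Scd1 and Scd2 move from above 0 to below 0 in S1S2 against WT, and Fads1 and Fads2 move to 0.78 and 0.76 in G9Gl against S1S2.

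The direct comparison asks whether the mutants differ from each other. It found 18 members lower and 2 higher in G9Gl than in S1S2, beside 21.1% lower and 21.6% higher of all genes tested. One member, Hsd17b7, was called with at least a 2-fold change, which 13.1% of all genes passed, at a log2 difference of -1.33 ± 0.17 (adjusted p = 4.13e-08). The sterol enzymes gave 11 lower and none higher, with a median of -0.38. Besides Hsd17b7 and Ebp (-0.54 ± 0.069), the larger differences were in Fdft1 (-0.68 ± 0.083), Hmgcs1 (-0.63 ± 0.099), Idi1 (-0.60 ± 0.14), Mvd (-0.43 ± 0.043), Msmo1 (-0.42 ± 0.031) and Nsdhl (-0.39 ± 0.071). Pmvk was at -0.36 ± 0.03, and at -0.24 relative to the median of chromosome 3.

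For 7 sterol enzymes the difference between the mutants did not pass the threshold in edgeR. Sc5d differed by 0.03 ± 0.029 with a 95% interval from -0.06 to 0.11, and Acat2 by 0.10 ± 0.069 with an interval from -0.09 to 0.29. Those of Lss (-0.34 to 0.09) and Fdps (-0.47 to 0.14) were wider and included 0. Relative to the median of chromosome 10, Lss was at -0.32, and relative to that of chromosome 3, Fdps was at -0.04. Cyp51 was at 0.11 ± 0.03 with an interval from 0.03 to 0.20, Mvk at -0.22 ± 0.073 and Tm7sf2 at -0.41 ± 0.18. These last 3 passed under some alternatives, Cyp51 by DESeq2 (adjusted p = 0.00855), Mvk with no filter (0.00537) or only the 2 genotypes in edgeR (0.00534), and Tm7sf2 with no filter (0.00755) or without G9Gl replicate 1 (0.00286). With chromosome medians removed, Tm7sf2 was at 0.11, so its direction between the mutants turned.

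Among the regulators Insig1 (-0.70 ± 0.099), Srebf2 (-0.27 ± 0.056) and Srebf1 (-0.24 ± 0.038) were lower in G9Gl than in S1S2. Scap (-0.03 ± 0.037, 95% interval from -0.14 to 0.07) and Stard4 (-0.10 ± 0.081, from -0.32 to 0.13) did not pass. Relative to the medians of chromosomes 9 and 18, Scap and Stard4 were both at -0.13. Of the fatty acid enzymes Elovl6 (-0.87 ± 0.11), Scd1 (-0.58 ± 0.041), Scd2 (-0.58 ± 0.063) and Acly (-0.22 ± 0.052) were lower, and Fads1 (0.26 ± 0.04) and Fads2 (0.24 ± 0.071) were higher. Acaca (0.13 ± 0.047, adjusted p = 0.0202) and Fasn (-0.18 ± 0.081, adjusted p = 0.0836) did not pass, but did in edgeR with no filter on low counts (adjusted p = 0.00759 and 0.0016). Relative to the chromosome 19 median the differences of Scd1 and Scd2 shrank to -0.06 each. The calls of Dhcr7 (-0.35 ± 0.11), Acly and Fads2 were lost in some fits without 1 library. For Dhcr7 this was so without S1S2 replicate 1 or 2 or G9Gl replicate 1 or 3 (log2 differences from -0.34 to -0.28), for Acly without S1S2 replicate 2 or G9Gl replicate 1 (-0.21 and -0.17), and for Fads2 without S1S2 replicate 3 or G9Gl replicate 2 (0.22 and 0.20).

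**Figure D3:**
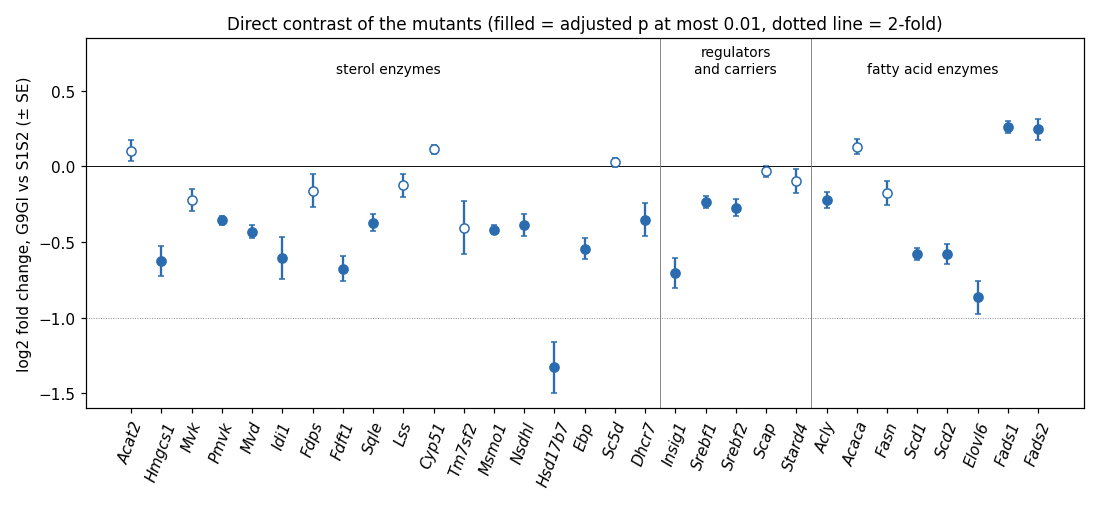
Log2 fold change of G9Gl against S1S2 (vertical axis, bars are SE) for each member (horizontal axis), filled where the adjusted p is at most 0.01, with a dotted line at a 2-fold decrease. Hsd17b7 alone lies beyond that line, at -1.33, and Fads1 and Fads2 are the filled points above 0.

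The order of the libraries within a genotype was often the same from member to member. G9Gl replicate 1 was the lowest of its genotype for 26 of the 31 members (83.9%), including 15 of 18 sterol enzymes, and for 34.2% of all genes tested. WT replicate 3 was the lowest WT library for 21 members (67.7%, against 37.7% of all genes), and WT replicate 2 the highest for 20 (64.5%, against 34.8%). S1S2 replicate 3 was the lowest of its genotype for 17 (54.8%, against 35.7%). These shares are descriptions and were not tested. The median over the sterol enzymes of the log2 ratio to the WT mean was -0.68 in G9Gl replicate 1, and -0.57 and -0.52 in replicates 2 and 3. It was -0.30, -0.26 and -0.36 in the S1S2 libraries and 0.02, 0.04 and -0.02 in WT. The genotypes did not overlap in this median, although the nearest libraries of S1S2 and G9Gl, at -0.36 and -0.52, lay about as far apart as G9Gl replicates 1 and 3. For the fatty acid enzymes the medians were 0.01, 0.05 and -0.09 in WT, 0.07, 0.03 and -0.10 in S1S2 and -0.36, -0.29 and -0.24 in G9Gl, so that S1S2 and WT overlapped.

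**Figure D4:**
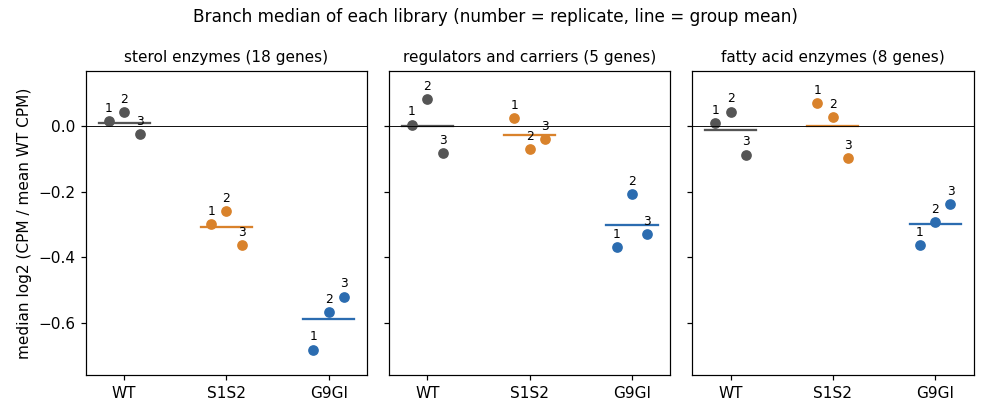
Median over each branch of the log2 ratio of CPM to the WT mean (vertical axis) in each library, by genotype (horizontal axis), with the replicate number above each point and a line at the genotype mean. The sterol enzymes form 3 separate levels, with S1S2 libraries from -0.36 to -0.26 and G9Gl libraries from -0.68 to -0.52, whereas the S1S2 and WT points overlap for the other branches.

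Per length of the longest annotated transcript, the members of the sterol branch ranged from 3.04 CPM per kilobase for Tm7sf2 to 99.0 for Cyp51 in WT, with Hmgcs1 at 94.4, Acat2 at 82.5 and Msmo1 at 80.8. In G9Gl Cyp51 was still the highest at 69.5 and Hmgcs1 had dropped to 43.5, below Acat2 at 53.4 and Msmo1 at 55.6. In WT Cyp51 and Hmgcs1 differed by less than the SD of Hmgcs1 between libraries.

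Genes around the pathway that are not members moved less uniformly. Of 33 such genes listed, 30 passed the filter, and 7 changed in S1S2, 13 in G9Gl and 14 between the mutants. Of all genes tested 37.9%, 35% and 42.6% changed in these comparisons. For the 30 genes the share was below that of all genes in S1S2, above it in G9Gl and near it between the mutants. Among 6 tested genes of SREBP processing and oxysterol receptors 1 rose in S1S2 and 2 rose in G9Gl. None of the 7 genes of the isoprenoid branch, which leaves the pathway after farnesyl diphosphate, changed in S1S2, and 1 rose in G9Gl. Of 12 further lipogenic genes tested, 5 fell and 3 rose in G9Gl, and 2 fell and 2 rose in S1S2. Acacb, the mitochondrial counterpart of Acaca (chr5:114146535-114250761), was at 1.78, 1.72 and 2.06 CPM in the WT libraries, 0.965, 1.49 and 1.36 in S1S2 and 0.386, 0.287 and 0.588 in G9Gl, a fall of 2.12 on the log2 scale in G9Gl (adjusted p = 5.9e-06).

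The list of sterol efflux and storage held the largest change among these genes. Abca1, the cholesterol exporter that is switched on by oxysterol receptors (chr4:53030787-53159895), was at 2.25, 1.98 and 2.16 CPM in the WT libraries, 13.01, 14.4 and 10.96 in S1S2 and 2.60, 2.94 and 2.42 in G9Gl. It rose in S1S2 by 2.59 on the log2 scale (adjusted p = 5.83e-11) and was at 0.31 in G9Gl (adjusted p = 0.122), and the mutants differed by -2.27. Mylip, a ubiquitin ligase of lipoprotein receptors and likewise an oxysterol receptor target (chr13:45389742-45412022), was at 15.8, 15.4 and 16.5 CPM in WT, 6.48, 6.63 and 8.32 in S1S2 and 6.35, 7.76 and 7.02 in G9Gl. It fell in both mutants, by 1.16 and 1.18 on the log2 scale (adjusted p = 8.03e-08 and 3.97e-08). The pair thus moved in opposite directions in S1S2. No other gene of this list was called at 2-fold, and Abcg1 was at 0 counts in every library. Nr1h3, an oxysterol receptor, did not pass the filter, with a mean of 0.291 CPM in WT. Nr1h2, the other such receptor listed, had means of 23.5 CPM in WT, 27.3 in S1S2 and 29.4 in G9Gl. It rose in G9Gl by 0.32 on the log2 scale (adjusted p = 0.000638) and did not pass in S1S2 (0.22, adjusted p = 0.0134).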

How the data were processed

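The authors deposited raw read counts per Ensembl gene for 9 libraries, whole numbers that were not normalized. According to the study's methods they trimmed reads of stranded total RNA with cutadapt, aligned them with STAR (2.5.2b in the submitters' processing notes) to GRCm38 and counted with TEtranscripts, which shares reads that align to several places among copies. The annotation release and strand setting are not given in the sources used here. Identifiers were matched to GENCODE M21, 47224 of 47937 genes. Differential expression was tested with edgeR 4.0.16 in R 4.3.3 (quasi-likelihood F test, TMM, filterByExpr, 1 fit of all 9 libraries, Benjamini-Hochberg over 15540 genes), with the script checked on simulated counts. All adjusted p-values are from this test unless another tool is named. The study used DESeq2, which was an alternative here (1.42.0). Standard errors come from the spread of log2 CPM with a prior count of 2, and 95% intervals from these with the t distribution. Depth was between 21319778 and 32157623 counts, where 3 counts equal at most 0.141 CPM. Reads carry no molecular identifiers, so floors cover counting error only. Replicate pairs differed by more than counting noise (chi-square per degree of freedom of at least 2.63), and no library was counted as a duplicate.

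The members and lists were chosen with earlier results of these data known. Values of every library are given for members past the threshold with at least a 1.5-fold change in any comparison, and for Srebf1, Srebf2, Scap, Insig1, Hmgcs1, Sqle, Fasn, Scd1 and Scd2, and genes of the related lists are named where called at 2-fold. Abcg1, Nr1h2 and Nr1h3 are named besides. Marker lists covered fibroblasts, adipocytes, epithelial, haematopoietic and endothelial cells, hepatocytes and proliferation. Alternatives were DESeq2, its size factors in edgeR, no composition factor, no filter or at least 10 counts in every library, an adjusted p of at most 0.05, only the genotypes compared, the replicate number as a block, each library left out, removal of chromosome medians and, chosen after seeing the data, leaving out members that share over 20% of their 75-base stretches with other genes.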

Additional observations from a re-analysis of the deposited data

Results flagged for a closer look

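For 20 members the test of G9Gl against S1S2 itself passed the threshold, so their change from WT differed between the mutants. The log2 differences of the sterol enzymes were -0.63 for Hmgcs1, -0.36 for Pmvk, -0.43 for Mvd, -0.60 for Idi1, -0.68 for Fdft1, -0.37 for Sqle, -0.42 for Msmo1, -0.39 for Nsdhl, -1.33 for Hsd17b7, -0.54 for Ebp and -0.35 for Dhcr7. Those of the regulators were -0.70 for Insig1, -0.24 for Srebf1 and -0.27 for Srebf2. The fatty acid enzymes differed by -0.22 for Acly, -0.58 for Scd1, -0.58 for Scd2, -0.87 for Elovl6, 0.26 for Fads1 and 0.24 for Fads2. Of these 20, Hsd17b7 and Scd1 were the 2 that rose in S1S2 and fell in G9Gl, and the rise of Scd1 turned into a fall relative to the chromosome 19 median.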

How the results depend on the processing

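The counts of members that changed (19, 26 and 20 in S1S2, in G9Gl and between the mutants) stayed within 1.5 times under the alternatives that could move them, with 21, 26 and 21 by DESeq2. Removal of chromosome medians shifted fold changes only and kept the adjusted p of the main fit. It could not move these counts and is no check of them. Leaving out each library in turn gave 14 to 21, 24 to 26 and 18 to 19 members, and 6 to 8, 12 to 13 and 12 to 15 of the related genes. The count at 2-fold in G9Gl was 1 to 2 in those fits, being 1 without WT replicate 1, and 1 without the members that share sequence, and where it stayed at 2 without G9Gl replicate 1 or 3, Tm7sf2 or Fdft1 stood in place of Idi1. The median of the regulators in S1S2 ranged from -0.0949 (without WT replicate 3) to 0.0457 (without WT replicate 2) and was 0.0260 with chromosome medians removed. The fatty acid median in S1S2, close to 0, was also negative with no composition factor, with no filter and with at least 10 counts in every library. Chromosome median removal put the fatty acid medians at -0.1684 in S1S2, -0.1944 in G9Gl and -0.0614 between the mutants. Without the members that share sequence, the sterol median in S1S2 was -0.2471 and the fatty acid median in G9Gl -0.3860. Sharing of reads was not measured, and its part in these values was not tested. Same-numbered libraries correlated between -0.0686 and 0.124 in their deviations from the genotype means. These deviations also carry the noise of each gene, so the correlations do not settle whether the libraries were handled in pairs. Whether the replicate number marks such pairs is not given in the sources used here. Blocking on that number gave 20, 25 and 20 members that changed, and moved Mvk past the threshold in S1S2 and Scap below it in G9Gl.

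Of 1302 values of single members under the alternatives, 1214 kept direction and side of the threshold, 35 lost the call, 25 gained it and 28 turned direction. For the values with chromosome medians removed, the adjusted p was that of the main fit, so only their direction could turn. Where leaving out 1 library turned a direction, values ranged in S1S2 from -0.0416 to 0.0768 for Elovl6, -0.1026 to 0.0423 for Dhcr7, -0.0949 to 0.0457 for Srebf2, -0.0473 to 0.0230 for Acaca and -0.0424 to 0.1776 for Fasn, and in G9Gl from -0.0296 to 0.0728 for Ebp, -0.0362 to 0.0834 for Fads2, -0.0383 to 0.0135 for Srebf1 and -0.2128 to 0.0025 for Fasn. With no composition factor Elovl6 was at -0.0059 in S1S2, and Ebp and Fads2 at -0.0070 and -0.0061 in G9Gl. Chromosome medians removed, Elovl6 was at -0.0843 and Srebf2 at 0.0260 in S1S2 and Ebp at -0.0155 in G9Gl. None of these members had passed the threshold there. Removal of chromosome medians also turned Scd1 (-0.1660) and Scd2 (-0.1861) in S1S2, and Acat2 (-0.0190), Tm7sf2 (0.1115) and Sc5d (-0.0734) between the mutants, of which Scd1 alone had passed. The rise of Scap in G9Gl was also lost with no composition factor (adjusted p = 0.0206), with only the genotypes compared (0.0161) and with the block (0.0103), by edgeR. The cause of these changes was not tested.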

Other observations

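Cyp7a1, the rate-limiting enzyme of bile acid synthesis from cholesterol and a gene of hepatocytes, had 0 counts in all WT and S1S2 libraries and was at 5.05, 3.63 and 4.50 CPM in the 3 G9Gl libraries. Against the floor of 3 counts per library, this is at least 45.8-fold higher than in WT (adjusted p = 3.93e-09 in edgeR's quasi-likelihood test). The other 2 hepatocyte markers listed, Alb and Ttr, were at 0 CPM in every genotype. Krt8, an epithelial keratin, was at 4.67 CPM in S1S2 beside 0.138 in WT and 0.221 in G9Gl (means of 3 libraries), while Epcam and Cdh1 stayed at or below 0.266 CPM in the mean of each genotype. Krt18, the fourth epithelial marker listed, had 0, 8 and 3 counts in the S1S2 libraries and 0 in all WT and G9Gl libraries, and was too low to be tested. Haematopoietic markers summed to between 5.82 and 6.69 CPM over all libraries, and endothelial markers to at most 2.35 CPM. Kdr was at least 12.7-fold higher in S1S2 and Cdh5 at least 10.5-fold higher in G9Gl than in WT. These genes were chosen as markers, and their values are given as measured.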
